A study of Homo sapiens with 4 samples.

Results

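The aminoacyl-tRNA synthetases (ARSs) charge each tRNA with its amino acid, and their promoters were examined here in Flag-FLI1 ChIP-seq of HK1 cells. The set held 36 listed genes of 20046 protein-coding genes in GENCODE 44, 20 for enzymes of the cytosol and 16 for enzymes of the mitochondria, and each was found by its symbol. HK1 is an established nasopharyngeal carcinoma line, here overexpressing Flag-tagged FLI1 in both conditions, and the cells received either PBS, the control, or IFN-γ over 24 h. FLI1 is an ETS family transcription factor that recognizes a GGAA core, and the anti-Flag antibody reports the overexpressed protein. There was 1 Flag library per condition, so no test of the treatment could be made and every value below is from a single library. A gene had a promoter peak where a deposited peak overlapped the 3 kb either side of any annotated transcription start site (TSS) of the gene. Fold enrichment is the authors' ratio of the signal at a peak's summit to its local background, and pileup is the number of fragments stacked at the summit.

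Each cytosolic ARS feeds ribosomes in the cytosol, whereas most mitochondrial ARSs are separate nuclear genes whose products are imported to serve mitochondrial translation. Several cytosolic enzymes assemble with the scaffold proteins AIMP1, AIMP2 and EEF1E1 in the multi-tRNA synthetase complex. WARS1, tryptophanyl-tRNA synthetase, is a textbook IFN-γ-induced gene and draws on the same amino acid as IDO1, the enzyme that starts kynurenine synthesis. Many cytosolic ARS genes are also targets of ATF4, the transcription factor of the amino acid response, which binds C/EBP-ATF response elements. In these data only FLI1 occupancy was measured, and expression of the ARS genes is not analysed here.

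The promoters on which the results turn are printed first, from GRCh38 and 5′ to 3′ on the strand of the gene, with GGAA on either strand (GGAA or TTCC) in capitals. The sequences of CARS1 (chr11:3057424-3057543, minus strand), VARS1 (chr6:31795753-31795872, minus strand), YARS1 (chr1:32817359-32817478, minus strand) and RARS1 (chr5:168486351-168486470, plus strand) are the 120 bases before the MANE TSS (the start of the representative transcript) of strongly occupied cytosolic genes.
CARS1: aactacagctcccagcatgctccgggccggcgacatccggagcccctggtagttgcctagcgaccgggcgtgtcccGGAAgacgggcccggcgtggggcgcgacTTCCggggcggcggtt
VARS1: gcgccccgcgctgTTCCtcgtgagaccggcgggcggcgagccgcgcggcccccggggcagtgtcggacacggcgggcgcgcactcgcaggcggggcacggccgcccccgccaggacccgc
YARS1: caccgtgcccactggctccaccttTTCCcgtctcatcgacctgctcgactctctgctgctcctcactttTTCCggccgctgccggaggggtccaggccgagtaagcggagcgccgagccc
RARS1: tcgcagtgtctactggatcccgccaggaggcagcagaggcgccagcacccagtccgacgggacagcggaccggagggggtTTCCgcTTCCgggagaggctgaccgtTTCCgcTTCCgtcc
The 84 bases between the opposed MANE TSSs of HARS1 and HARS2 (chr5:140691371-140691454, minus strand) are shown because 1 peak served both genes. An octamer match lies at each end, the left one on the other strand (ACTTCCGG is the reverse complement of CCGGAAGT).
HARS1: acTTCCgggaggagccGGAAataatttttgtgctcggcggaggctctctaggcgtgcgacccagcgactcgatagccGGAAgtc
The stretch of PARS2 (chr1:54764644-54764763, minus strand) surrounds the summits of a gene whose IFN-γ to control ratio is given below. It holds TTCCGGAA, 2 cores back to back, at 2 places.
PARS2: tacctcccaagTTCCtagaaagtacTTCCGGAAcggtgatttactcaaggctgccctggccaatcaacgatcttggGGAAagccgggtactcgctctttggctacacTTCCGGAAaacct
The WARS1 stretch (chr14:100376328-100376477, minus strand) is the 150 bases before its upstream RefSeq start, 980 bp from the MANE TSS, where the summits lay. The EPRS1 stretch (chr1:220046506-220046625, minus strand) and the AARS1 stretch (chr16:70289507-70289656, minus strand) lie just before MANE TSSs with no peak in either library (EPRS1) or none after IFN-γ (AARS1).
WARS1: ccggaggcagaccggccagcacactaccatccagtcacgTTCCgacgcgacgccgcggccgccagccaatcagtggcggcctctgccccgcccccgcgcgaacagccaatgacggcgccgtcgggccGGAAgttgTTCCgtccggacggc
EPRS1: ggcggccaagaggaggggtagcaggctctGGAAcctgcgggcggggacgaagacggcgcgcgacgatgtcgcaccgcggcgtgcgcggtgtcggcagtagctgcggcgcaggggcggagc
AARS1: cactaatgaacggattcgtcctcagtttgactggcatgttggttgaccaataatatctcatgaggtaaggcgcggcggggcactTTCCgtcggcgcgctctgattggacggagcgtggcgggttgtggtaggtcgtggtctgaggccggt

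Nearly all ARS genes had a FLI1 promoter peak. It was present for 35 of 36 genes in the control library, against 61.9% of all coding genes, and for 32 of 36 in the IFN-γ library, against 59.7%. Peaks in both libraries were found for 32 genes, against 56.0% of all coding genes. EPRS1, the glutamyl-prolyl enzyme, had none in either library, and TARS3, NARS2 and SARS2 had one in the control library alone, as did 5.9% of all coding genes. No ARS gene had one in the IFN-γ library alone, against 3.7%. The members carried more annotated TSSs than usual, with a median of 12.5 against 5 over all coding genes, which gives them more windows to overlap. With 1 TSS per gene the counts were 35 and 30 of 36, against 57.3% and 54.1% of all coding genes. Signal below the peak caller's cutoff was not measured, and a gene without a peak may still have been bound.

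The peaks of ARS genes were also of higher rank than the usual promoter peak in both libraries. By −log10 p, the median ARS gene's strongest promoter peak stood at the top 13.7% of the control list and the top 23.1% of the IFN-γ list, against 24.7% and 28.8% over all coding genes with a peak. With 1 TSS per gene the ARS medians were 17.7% and 20.2%. The medians of all coding genes under that rule were not computed, so these 2 values have no matching background. The median fold enrichment was 13.0 for control peaks and 9.39 for IFN-γ peaks, against 10.5 and 9.12. The median pileup was 36 fragments and 44.5 fragments, against 26 and 33. Peaks in the top 10% of their list belonged to 14 genes in each library, 40.0% and 43.8% of the ARS genes with a peak, against 24.8% and 23.0% over all coding genes. These are descriptions of 2 libraries, with no test.

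**Figure D1:**
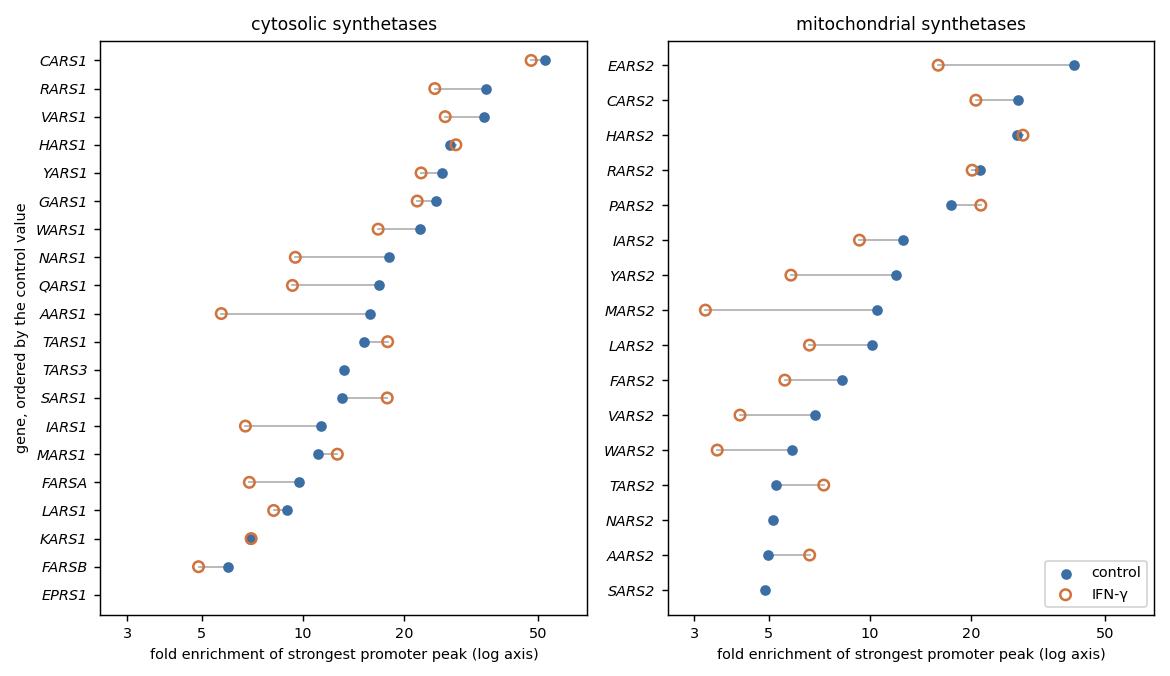
Fold enrichment of the strongest promoter peak of each ARS gene (log axis) in the control library (filled blue) and the IFN-γ library (open orange), with cytosolic enzymes on the left and mitochondrial enzymes on the right; a gene with no point had no promoter peak in that library. CARS1 leads both libraries at 52.6 and 47.7, EPRS1 has no point, and TARS3, NARS2 and SARS2 have a control point alone.

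Among cytosolic enzymes the strongest peak was that of CARS1, cysteinyl-tRNA synthetase. Its fold enrichment was 52.6 at rank 59 of the 30819 control peaks, and 47.7 at rank 84 of the 39654 IFN-γ peaks. Its summits lay 36 bp and 34 bp upstream of the MANE TSS, within chr11:3056751-3057871 in the control library, and rested on 210 and 266 fragments. VARS1, the valyl enzyme, followed with fold enrichments of 34.5 and 26.5 at ranks 283 and 495, its summits 11 bp and 15 bp upstream. VARS1 had a further peak at an inner TSS in each library, with fold enrichments of 11.6 and 8.90, and a weaker one whose summit was nearest to a TSS of the neighbour VWA7. RARS1, the arginyl enzyme, had values of 35.0 and 24.6, and its summits lay 3 bp and 20 bp upstream of the MANE TSS, over the run of TTCC cores printed above. YARS1, the tyrosyl enzyme, had 25.9 and 22.4, and GARS1, the glycyl enzyme, had 24.9 and 21.8.

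The shared peak of HARS1 and HARS2, the cytosolic and the mitochondrial histidyl enzymes, lay over the 84 bases that separate their opposed MANE TSSs. It spanned chr5:140691130-140691759 in the control library, with a fold enrichment of 27.4 at rank 675, and chr5:140690970-140691786 in the IFN-γ library, with 28.5 at rank 731. The pileup was 95 fragments and 131 fragments, a depth-scaled ratio of 0.947 with a counting interval of 0.722 to 1.25. The octamers at the ends of the interval lay 49 bp and 26 bp from the control summit. One peak therefore counts for both genes, and which of them it belongs to cannot be told apart. In all, 8 ARS genes (HARS1, HARS2, KARS1, YARS1, EARS2, FARS2, RARS2 and SARS2) had the representative TSS of an opposed coding gene within 1 kb upstream of their own, 22.2% of the members against 9.46% of all coding genes.

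The other cytosolic genes spanned a wide range. SARS1, the seryl enzyme, and TARS1, the threonyl enzyme, had higher fold enrichments in the IFN-γ library (17.8 and 17.8) than in the control library (13.0 and 15.1). NARS1, the asparaginyl enzyme, had 18.0 and 9.49, and FARSA, the alpha subunit of the phenylalanyl enzyme, had 9.72 and 6.93. Its partner FARSB, the beta subunit, was among the weakest, with 5.98 at rank 19386 and 4.89 at rank 28735. The FARSB peaks did not overlap between libraries, since the control summit lay 337 bp downstream of the MANE TSS and the IFN-γ summit 199 bp upstream. TARS3, a second threonyl gene, had a control peak of fold enrichment 13.2 with 30 fragments, whereas the nearest IFN-γ peak lay 60.2 kb from its MANE TSS.

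Of the 7 listed genes for enzymes of the multi-tRNA synthetase complex, 6 had a promoter peak in each library, against 61.9% and 59.7% of all coding genes. Their median fold enrichment was 11.2 and 8.74, against 10.5 and 9.12 over all coding genes with a peak. RARS1 had the highest values of them. QARS1, the glutaminyl enzyme, had 16.9 and 9.30, IARS1, the isoleucyl enzyme, 11.3 and 6.74, and MARS1, the methionyl enzyme, 11.1 and 12.6. LARS1, the leucyl enzyme, had 8.97 and 8.18, and KARS1, the lysyl enzyme, 6.98 and 7.01. EPRS1 was the exception, and the peak nearest its MANE TSS lay 47.4 kb away in the control library, at the promoter of IARS2. In the EPRS1 stretch printed above there is 1 GGAA core. The 3 scaffold genes all had promoter peaks in both libraries, as did 56.0% of all coding genes. EEF1E1 had fold enrichments of 11.8 and 6.56, AIMP2 10.1 and 6.54 and AIMP1 5.35 and 4.54. The median scaffold gene stood at the top 30.4% and 55.5% of the peak lists, against 24.7% and 28.8% over all coding genes with a peak.

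WARS1 had a promoter peak in both libraries, away from its MANE TSS, and its depth-scaled ratio did not depart from 1 beyond counting error. The control peak, at chr14:100375597-100376751, had a fold enrichment of 22.2 at rank 1977 and a pileup of 51 fragments. The IFN-γ peak, at chr14:100375491-100377285, had 16.7 at rank 3336 and 69 fragments. The depth-scaled ratio was 0.929, and its counting interval of 0.638 to 1.36 held both 1 and the median of all promoter pairs, 0.867. The summits lay 1099 bp and 1025 bp upstream of the MANE TSS at 100375347 and near a cluster of 14 annotated WARS1 TSSs, 904 bp to 996 bp upstream. The control summit lay 103 bp from the closest WARS1 TSS and was closer to a TSS of the neighbouring gene WDR25. A match to CCGGAAGT lay 1002 bp upstream of the MANE TSS, its centre 23 bp from the IFN-γ summit, and its outermost base fell outside the window searched around the control summit. A second octamer, CAGGAAGT, lay 1262 bp upstream, inside both peaks.

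Matches to the motifs through which IFN-γ is known to act lay both outside and inside the WARS1 peaks. A gamma-activated site (GAS, TTCNNNGAA) was centred 138 bp upstream of the MANE TSS, and the core of an interferon-stimulated response element (ISRE, here GAAA units 2 bases apart) was centred 51 bp upstream. Both lay outside the peaks of both libraries, but the GAS ended at 100375489, just short of the start of the IFN-γ peak at 100375491. A second ISRE core, 375 bp upstream, lay inside both peaks, and a second GAS match, 397 bp downstream, lay outside them. A match to these letters is a description and not a site. WARS2, the mitochondrial tryptophanyl enzyme, had a control peak 40 bp downstream of its MANE TSS with a fold enrichment of 5.86 and 17 fragments. In the IFN-γ library its promoter peak lay 56943 bp downstream, with a summit 1169 bp from the closest inner WARS2 TSS, and had 3.51 and 8 fragments, the lowest rank of any ARS gene (38687).

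**Figure D2:**
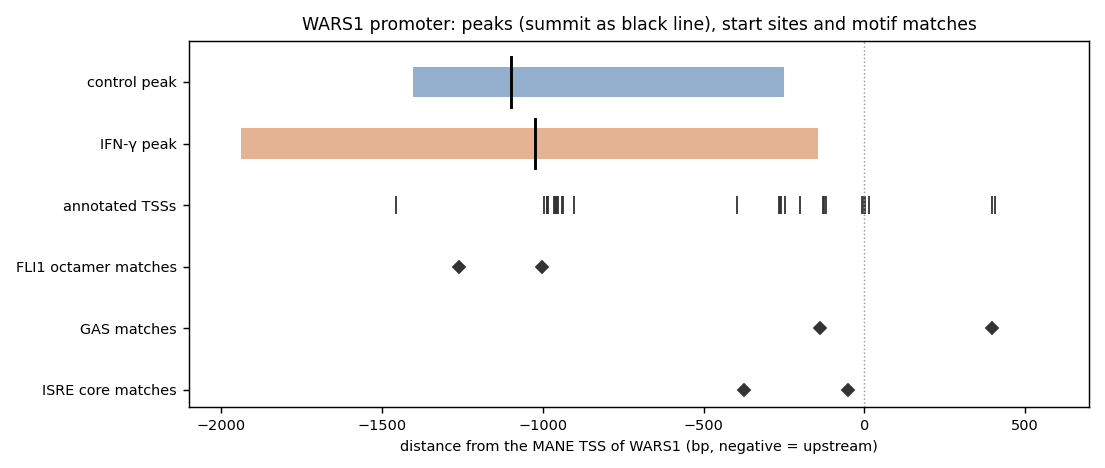
The WARS1 promoter by distance from the MANE TSS (bp, negative is upstream): control peak (blue) and IFN-γ peak (orange) with their summits as black lines, annotated TSSs as ticks, and motif matches as diamonds. The summits, 1099 bp and 1025 bp upstream, sit near the upstream TSS cluster, and the GAS match 138 bp upstream and the ISRE core 51 bp upstream lie outside both peaks. A second ISRE core, 375 bp upstream, lies inside both.

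The genes of mitochondrial enzymes had lower median fold enrichments than those of cytosolic enzymes in both libraries, which is given without a test. All 16 had a control peak and 14 an IFN-γ peak, against 61.9% and 59.7% of all coding genes. Their median fold enrichment was 10.3 and 6.95, against 15.8 and 14.7 for the cytosolic genes. The median mitochondrial gene stood at the top 23.7% and 33.9% of the lists, against 11.0% and 12.2% for the cytosolic genes. Over all coding genes with a peak the medians were 10.5 and 9.12, at the top 24.7% and 28.8%. EARS2, the glutamyl enzyme, had the strongest control peak, with 40.4 and 82 fragments, and 15.9 and 77 fragments in the IFN-γ library, but its summits were closer to a TSS of the opposed gene UBFD1. CARS2, the cysteinyl enzyme, had 27.5 and 20.6 at an alternative TSS 6.4 kb upstream of its MANE TSS, and a smaller peak of 11.1 and 8.23 at the MANE TSS. RARS2, the arginyl enzyme, had 21.2 and 20.1 with summits 6 bp and 19 bp upstream, and PARS2, the prolyl enzyme, had 17.3 and 21.3.

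The remaining mitochondrial genes fell below these. IARS2, the isoleucyl enzyme, had fold enrichments of 12.5 and 9.30, YARS2, the tyrosyl enzyme, 12.0 and 5.82, and LARS2, the leucyl enzyme, 10.2 and 6.60. FARS2, the phenylalanyl enzyme, had 8.25 and 5.58, and VARS2, the valyl enzyme, 6.88 and 4.11. TARS2, the threonyl enzyme, and AARS2, the alanyl enzyme, had higher values in the IFN-γ library (7.28 and 6.61) than in the control library (5.25 and 4.98). MARS2, the methionyl enzyme, had 10.5 and 3.24, from summits 601 bp and 618 bp downstream of its MANE TSS. A weaker MARS2 control peak, of 5.38 and 17 fragments with its summit 15 bp upstream, had no IFN-γ counterpart. NARS2, the asparaginyl enzyme, and SARS2, the seryl enzyme, had no IFN-γ promoter peak. Their control peaks were weak, with 5.13 and 10 fragments for NARS2 and 4.87 and 9 fragments for SARS2. The SARS2 summit lay 1736 bp upstream of its MANE TSS and nearest to a TSS of MRPS12, a mitochondrial ribosomal protein gene.

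The summits of ARS genes sat close to start sites. The strongest promoter peak had its summit within 100 bp of a TSS of its own gene for 24 of 35 genes in the control library (68.6%) and 22 of 32 in the IFN-γ library (68.8%), against 47.4% and 42.6% over all coding genes. The larger number of annotated TSSs in ARS genes moves in the same direction, and its part was not tested. AARS1, the alanyl enzyme, was the clearest exception. Its strongest peak lay 37584 bp downstream of the MANE TSS in the control library, past the 3′ end of the gene, with the summit 18 bp from a TSS of the neighbour EXOSC6. At the AARS1 MANE TSS itself the control library had a peak of fold enrichment 2.99 with 10 fragments, at rank 30441, and the IFN-γ library had none.

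Between the libraries, 29 of the control peaks overlapped an IFN-γ peak and stood for 30 ARS genes. After division by the relative depth of 1.46, the median IFN-γ to control ratio of pileups was 0.790, against 0.867 over 11934 promoter pairs of coding genes, whose values ran from 0.485 to 1.80 between the 5th and the 95th percentile. Over the strongest peak of each coding gene alone, which is how the ARS peaks were chosen, the median was 0.828 in 9030 pairs. The ratio was over 0.867 at 10 of the 29, against 45.1% of those 9030 pairs. Fold enrichment itself was higher in the IFN-γ library for 9 of 32 ARS genes (28.1%), against 32.7% of all coding genes with peaks in both. The counting interval lay wholly above 0.867 at 2 of the 29 peaks, against 11.0% of all pairs and 9.28% of the strongest peaks, and wholly below it at 2, against 5.32% and 6.62%. These shares are near the background and no result about the ARS genes is read from them.

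The peaks above the median were those of PARS2 and TARS1. PARS2 went from 57 fragments to 111, a ratio of 1.34 (0.963 to 1.87), with its summits 188 bp and 199 bp upstream of the MANE TSS, near the back-to-back cores printed above. TARS1 went from 52 to 99, a ratio of 1.31 (0.926 to 1.87), with its summits 246 bp and 255 bp downstream. The intervals of PARS2 and TARS1 both held 1. The peaks below the median were those of YARS1, from 103 to 85 with a ratio of 0.567 (0.420 to 0.763), and of AARS1, from 42 to 29 with a ratio of 0.474 (0.285 to 0.779). This AARS1 value belongs to the peak at the EXOSC6 start site. CARS1, with the most fragments and so the narrowest interval, had a ratio of 0.870 (0.723 to 1.05), and VARS1 had 0.898 (0.708 to 1.14). Intervals cover counting error only and leave out the variation between replicates.

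**Figure D3:**
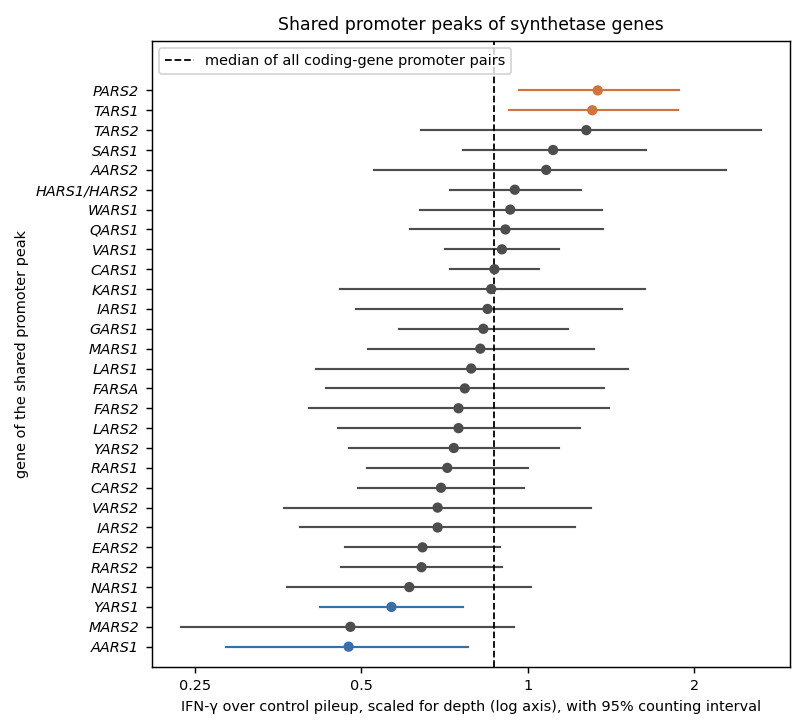
IFN-γ to control ratio of summit pileup, divided by relative depth, for the 29 shared promoter peaks of ARS genes (log axis); points are ratios, lines are 95% counting intervals, and the dashed line is the median of all coding promoter pairs, 0.867. The intervals of PARS2 and TARS1 (orange) lie above the line and those of YARS1 and AARS1 (blue) below it.

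The 100 bp either side of each strongest promoter summit were searched for motifs on both strands, which gave 34 separate control summits and 31 IFN-γ summits for ARS genes. The GGAA core was at 33 (97.1%) and all 31 of them, against 94.5% and 97.3% of the summits of all coding genes. An FLI1 octamer (CAGGAAGT or CCGGAAGT, both of which contain the core) was at 4 (11.8%) and 6 (19.4%), against 15.8% and 18.5%. In the control library these were the summits of CARS1, HARS1 and HARS2 (shared), PARS2 and YARS2, and NARS1 and WARS1 were added in the IFN-γ library. The octamers of NARS1 and WARS1 also lay inside the control peaks. They entered the search window because the called summits differed by 120 bp and 74 bp between libraries. The GAS was at 4 and 3 summits (11.8% and 9.68%), against 3.85% and 4.64%. Its exact 95% intervals, 3.30% to 27.5% and 2.04% to 25.8%, held those background shares. The ISRE core was at 1 and 1, against 1.91% and 3.56%. The AP-1 motif, at 5.99% and 9.09% of all summits, was at 0 ARS summits in each library, for which the exact 95% interval reached 10.3% and 11.2%.

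A C/EBP-ATF response element core (TGATGNAA, where N is any base) was more frequent at ARS summits. It was at 6 of 34 control summits, 17.6% with an exact 95% interval of 6.76% to 34.5%, against 1.34% of all coding summits. In the IFN-γ library it was at 7 of 31, 22.6% (9.59% to 41.1%), against 2.24%. The motif was searched because ARS genes are known ATF4 targets, and was chosen with earlier results in view, so these shares are a description. CARS1, GARS1, MARS1, YARS1 and FARS2 held it near the summits of both libraries, NARS1 in the control library alone, and IARS1 and WARS2 in the IFN-γ library alone. The NARS1 and IARS1 matches lay inside the peaks of both libraries, whose called summits differed by 120 bp and 268 bp. The windows of 30 bases around the matches are printed in the direction of the motif, with the core in capitals.
CARS1: ttcctagaatcTGATGCAAccgccgccccg
GARS1: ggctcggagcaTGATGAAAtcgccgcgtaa
IARS1: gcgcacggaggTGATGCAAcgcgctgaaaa
MARS1: gaatccctcgcTGATGCAAccggaaccggc
NARS1: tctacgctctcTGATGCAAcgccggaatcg
YARS1: ccgagcccagcTGATGCAAcctggctggac
FARS2: aaggctctccgTGATGCAActgcacgtccc
WARS2: ccctgaggtgaTGATGTAAtccttcctggg
They lie at chr11:3057407-3057436 (plus strand), chr7:30594834-30594863 (minus strand), chr9:92293692-92293721 (plus strand), chr12:57488053-57488082 (minus strand), chr18:57621804-57621833 (minus strand), chr1:32817337-32817366 (minus strand), chr6:5261136-5261165 (minus strand) and chr1:119083653-119083682 (minus strand) in the order printed. In 6 of these genes the core was centred within 29 bp of the MANE TSS, in FARS2 it was 362 bp upstream, and in WARS2 it was in the inner peak, over 1 kb from a WARS2 TSS. Only matches within 100 bp of a summit were kept, and most ARS summits lay within 100 bp of a TSS. Closeness of the matches to start sites is therefore partly set by the search. A GGAA core lay 2 bases from the element in MARS1, 3 bases in WARS2, 4 bases in NARS1 and 7 bases in CARS1, 13 to 27 bases from it in FARS2, YARS1 and GARS1, and in IARS1 none lay within 100 bp of it.

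**Figure D4:**
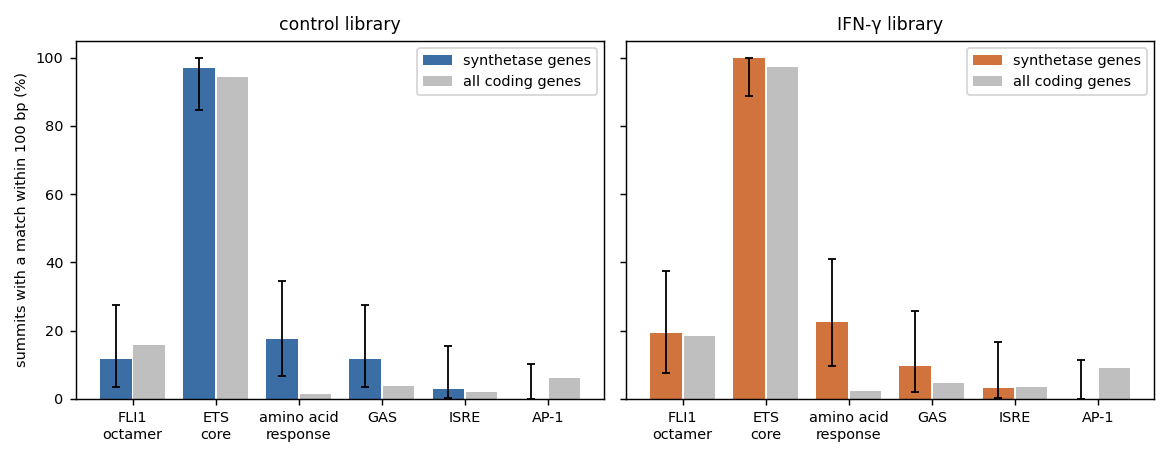
Share of strongest promoter summits with a motif match within 100 bp (%), for ARS genes (coloured, with exact 95% intervals) and for all coding genes (grey), in the control library (left) and the IFN-γ library (right). The ETS core is at nearly all summits of both sets, and the amino acid response element is at 17.6% and 22.6% of ARS summits against 1.34% and 2.24% of all.

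The median ARS promoter was ordinary in base composition. In the 250 bases either side of the MANE TSS, or of 1 representative TSS, the median GC content was 63.2%, against 64.7% over 20033 coding genes, and the median observed to expected CpG ratio was 0.784, against 0.776. WARS1 was the lowest ARS gene in both, with 48.1% and 0.139 around its MANE TSS, away from its peak summits.

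Genes that work beside the ARSs were set next to them. Of 10 genes for tRNA charging and maturation, 8 had a control promoter peak and 10 an IFN-γ promoter peak, against 61.9% and 59.7% of all coding genes. TRNT1, which adds the CCA end to tRNAs, had fold enrichments of 34.3 and 20.4, with a ratio of 0.575 (0.419 to 0.787). DTD1, a proofreading deacylase, had 24.8 and 24.4, ELAC2, the tRNA 3′ processing nuclease, 22.4 and 15.9, XPOT, the tRNA exporter, 22.2 and 21.5, and PSTK, the kinase of the selenocysteine pathway, 20.3 and 10.1. The other genes with peaks in both libraries were weaker, GATC with 4.65 and 5.89, QRSL1 with 6.26 and 7.19 and MTFMT with 3.85 and 3.51. Over those of the 10 with a peak, the median was 21.3 and 8.66, against 10.5 and 9.12 over all coding genes. GATB, of the glutamyl-tRNA amidotransferase, and SEPSECS, of the selenocysteine pathway, had peaks in the IFN-γ library alone, of 5.11 and 4.71.

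Of 16 genes of the amino acid response, 15 had a control promoter peak and 16 an IFN-γ promoter peak, beside the same 61.9% and 59.7%. ATF4 itself had the strongest of them, with a fold enrichment of 83.8 at rank 47 and 190 fragments in the control library, and 154 at rank 10 and 428 fragments in the IFN-γ library. Its ratio was 1.55 (1.30 to 1.85), above the median of all pairs, and it was the only gene of the 15 with a shared peak whose interval lay apart from that median. The ATF4 targets ASNS, asparagine synthetase, and TRIB3, a pseudokinase, had 20.9 and 17.9, and 26.5 and 38.3. These named genes do not stand for the rest. Over the 15 and 16 genes of this set with a peak, the median fold enrichment was 7.90 and 9.13, against 10.5 and 9.12 over all coding genes. The median gene stood at the top 42.6% and 31.4% of the peak lists, against 24.7% and 28.8%. SLC7A11, the cystine transporter, had a peak in the IFN-γ library alone, of 12.2. The median ratio of this list was 1.05, beside 0.790 for the ARS genes and 0.828 over the strongest peaks of all coding genes. Over those coding-gene peaks the interval lay wholly above the median of all pairs at 9.28% and wholly below it at 6.62%. The difference between the lists was not tested.

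Outside promoters, the gene bodies of 5 ARS genes held 20 peaks, counted over both libraries, and none was in the top 10% of its list. Such a peak was held by 13.9% of ARS genes and 27.4% of all coding genes, whose median lengths were 37.4 kb and 27.4 kb. Peaks within 3 kb of any TSS of the gene were left out. The ARS genes had a median of 12.5 TSSs against 5, which can leave out more of their bodies, and its part was not tested. FARS2 held 10 of them. The strongest was an intronic FARS2 peak about 468 kb from the MANE TSS, chr6:5728800-5729421 in the control library and chr6:5728971-5729592 in the IFN-γ library, with fold enrichments of 13.4 and 13.8. A FARS2 peak at chr6:5809276-5809538 in the control library, found in both libraries with 6.36 and 5.77, held a run of 11 GGAA units in a row, a form of repeat that FLI1 fusion proteins are known to bind. An IFN-γ peak at chr6:5632442-5632939, with a fold enrichment of 9.90 and 38 fragments and no control counterpart, held 20 GGAA cores, of which at most 5 were in 1 run.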

How the data were processed

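Flag ChIP-seq peak lists of 2 libraries were used, 1 from PBS-treated and 1 from IFN-γ-treated HK1 cells, and the inputs are not analysed here. The authors' methods name Cutadapt 1.18 for trimming, Bowtie2 2.3.4.1 for alignment to GRCh38, Picard for duplicate removal, MACS 2.1.2 for peak calling by p-value and ChIPseeker for annotation. Use of the inputs in calling is not given in the sources used here. For each peak the deposited lists give the fold enrichment, a ratio computed by the authors, −log10 p-values and −log10 q-values, and the summit.

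Positions were made 1-based. From each peak's fold and −log10 p, the pileup (a whole number) and background were solved, and 100% of peaks were recovered within a relative error of 1e-05. The lists held 30819 and 39654 peaks with median pileups of 16 and 22 fragments. The ratio of their lowest backgrounds, 1.46, served as relative depth. Pileup ratios carry exact Clopper-Pearson 95% intervals, which cover counting error only. TSSs came from GENCODE 44, and of the 36 genes 30 matched the RefSeq promoter table. Peaks were ranked by −log10 p. Labelled cell type could not be checked from binding data.

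The members and lists were chosen with earlier results of these data known, and the TGATGNAA motif was added after the designs were written. Named genes were WARS1, the 5 highest and 3 lowest by mean rank over both libraries, those with a peak in fewer than 2 libraries, those with a ratio interval apart from the median, those sharing a peak, and those with a gene-body peak in the top 10% (none); the others are given as group members. Alternatives covered the promoter window, TSS choice, cutoffs, ranking, scaling and motif. The steps were tested on simulated data. The work used pysam 0.24.0, matplotlib 3.10.9, pandas 2.3.3, numpy 2.4.6, scipy 1.17.1 and Python 3.11.15.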

Additional observations from a re-analysis of the deposited data

How the results depend on the processing

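Of 44 alternative values, 42 stayed within 1.5 times the main count or within the interval of the main value. With the median of all promoter pairs set to 1, the median ratio over the shared ARS peaks was 0.911 in place of 0.790, a change that the rescaling itself makes, and the same genes lay above (PARS2, TARS1) and below (YARS1, AARS1) it. With the GGAA core in place of the FLI1 octamer, 33 of the 34 control summits held a match in place of 4, since each octamer contains the core. Counts of ARS genes with a peak ran from 29 to 35 in the control library, from 27 to 32 in the IFN-γ library and from 25 to 32 in both, the lowest where the TSS nearest the summit had to belong to the gene. The share of all coding genes under that nearest-TSS rule was not computed. These lowest counts therefore cannot be set beside the shares given for the main rule. The WARS1 ratio ran from 0.752, as a ratio of fold enrichments, to 1.07. With the strongest peak taken within 1 kb of 1 TSS per gene, an alternative added after seeing the data, the peak at EXOSC6 no longer counted for AARS1, and 3 genes lay apart from the median in place of 4. Ratios of folds and pileups less background have no counting interval, so no count of genes apart was made from them. No paired analysis was possible because no condition had more than 1 library. At these depths, peaks near the median pileup could not show a ratio close to 1 as different from it.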
